A study of Mus musculus with 3 samples.

Results

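The transcripts described here are those of 1063 protein-coding genes in 1 RNA sequencing library, made from wild-type (WT) LSK cells of C57Bl/6 mouse fetal liver at E14.5. LSK cells are sorted as lacking lineage markers and carrying Sca1 and c-Kit, and the cells of 4 to 5 embryos had been pooled. The series holds 2 further libraries, from LSK cells of the same stage, strain and organ that were hemizygous or homozygous for a DNMT3B7 transgene. DNMT3B7 is a shortened DNMT3B, an enzyme that methylates DNA; the WT embryos are the controls and carry no transgene, and no source used here gives the promoter of the transgene. The libraries hemizygous and homozygous for DNMT3B7 are used only to show how far the wild-type order of genes held in another pool of cells.

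The genes were chosen by position. They are the protein-coding genes from the start of 10 chromosomes up to a named last gene, which gave 1050 nuclear genes, plus the 13 mRNAs of the mitochondrial genome. This is 1063 of the 21099 protein-coding genes with an accepted value in the table. The last genes had been set in earlier work from the values of these same libraries, because levels beyond them were unreliable. For example, Morc3, the last gene taken on chromosome 16, stood at 112 and its next neighbour Chaf1b at 42.0, while on chromosome 3 Car2 stood at 2200 and the next gene, Gm9733, at 0.597. On chromosome 19 the step was from Rasgrp2 at 1339 to Nrxn2 at 6.15. Chromosome 16 gave 611 of the nuclear genes, chromosome 19 gave 141 and chromosome 8 gave 102, and the other 7 chromosomes gave between 10 and 37 each, so the ranking covers a sample of the genome and not all of it. Kit, Ly6a, Cd34 and Ptprc lie outside these stretches, so the sorting gate could not be checked on its own markers.

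All levels are the deposited FPKM (fragments per kilobase of transcript, scaled to library size) divided by 4245, called the value from here on. FPKM is a level per length, so levels of different genes can be set side by side. A gene was counted as measurable at a value of 1 or more, which corresponds to about 7.25 sequenced fragments for a transcript of 2000 bases. The number of fragments behind each value was estimated from steps between low values, and the bracketed range after a value is the exact Poisson 95% interval of that estimate. These ranges cover counting error only and rest on the median length of each gene's annotated transcripts. There is 1 library for each genotype, so no value has a replicate and no test between genotypes was made. The estimated total was 2980000 fragments for WT, 2970000 for the library hemizygous for DNMT3B7 and 2290000 for the homozygous one; with each gene's longest transcript the totals were 5640000, 5910000 and 4790000.

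Fetal liver is where blood stem cells multiply before birth, and the organ also makes large numbers of red cells. The LSK fraction holds stem cells and multipotent progenitors that have not yet settled on a lineage, and such cells are known to carry low levels of transcripts from several blood lineages at once. The surrounding liver holds hepatoblasts, endothelium and stroma, whose genes serve below as a measure of other cells in the sort.

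Of the 1050 nuclear genes, 726 were measurable in the WT library (69.1%), 220 were listed at 0 and 104 lay above 0 but under 1. The measurable genes had a median value of 74.0, with quartiles of 19.5 and 182. The count was 594 genes at 10 or more, 305 at 100 or more and 29 at 1000 or more. By definition 363 genes, 34.6% of all nuclear genes tested, stood at or above that median. For a gene listed at 0, a count of 3 fragments would correspond to a median value of 0.708, with a range from 0.0672 to 740 set by transcript length, so a zero means not detectable at a limit that differs by gene and is high for very short ones. Abundance was concentrated: 49 genes held 50% of the summed nuclear value, the 25 highest held 37.3% and the first 2 held 13.2%. The 5 genes nearest the median were Srl, Klhl22, Gm5483, 1110004E09Rik and Pag1, between 73.4 and 74.2.

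**Figure D1:**
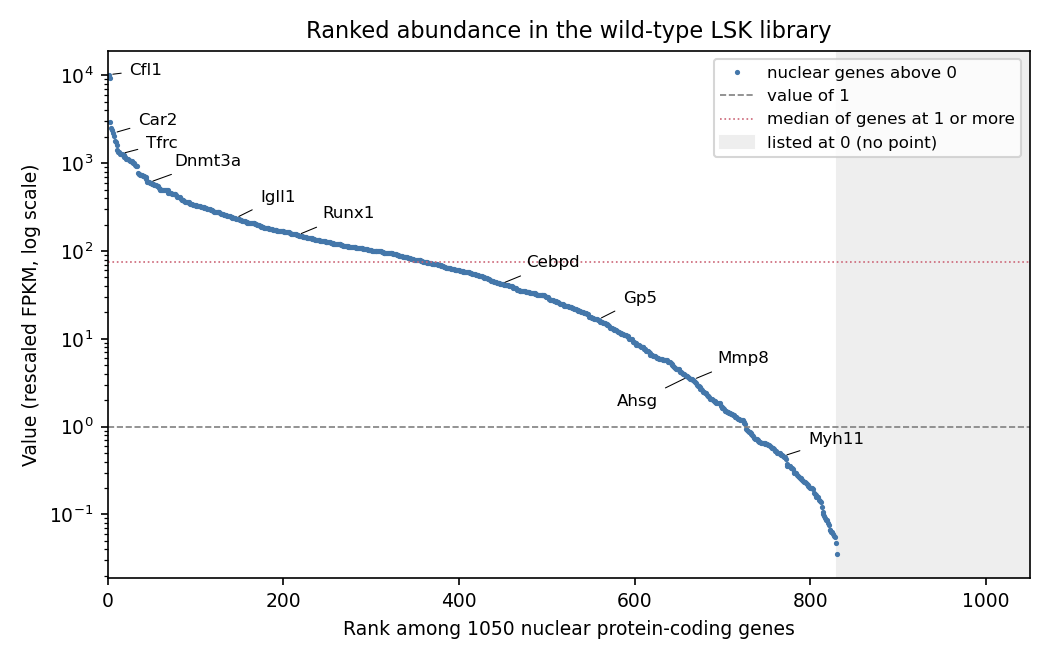
Value (rescaled FPKM, log axis) of each nuclear gene above 0 against its rank among 1050 genes in the WT library; dashed line, a value of 1; dotted line, the median of measurable genes at 74.0; grey, the 220 genes listed at 0. Cfl1 heads the curve at 10185, and the other labelled genes are described in the text.

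Cfl1 and Fau stood apart at the head of the nuclear genes. Cfl1, which encodes the actin-severing protein cofilin, stood at 10185 [10073 to 10299], with 9022 in the library hemizygous for DNMT3B7 and 9671 in the homozygous one. Fau, which encodes ribosomal protein S30 fused to a ubiquitin-like peptide, stood at 9340 [9169 to 9513], with 8269 and 8107 in the other libraries. Both were the first and second gene in all 3 libraries, and Fau was 3.15 times the third gene, Banf1, at 2967. Part of the Fau sequence is shared with the processed pseudogene Gm9843 (30% of its stretches of 50 bases), and no source used here says how the authors' counting divided such reads.

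After these came Eif4a2 (2490), an RNA helicase of translation initiation, and Ppp1ca (2395), the catalytic subunit of protein phosphatase 1. Their intervals overlapped. Car2, the red cell carbonic anhydrase, was at 2200 [2145 to 2256], and Adrbk1, a kinase that switches off G protein-coupled receptors, at 2015. Rnaseh2c, a subunit of ribonuclease H2, was at 1810, and Sf1, which binds the branch point of introns, at 1741. Stxbp2, needed for the release of granules in blood cells, was at 1622. The remaining genes of the first 25 lay between 1070 and 1413.

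Those 15 genes were of several kinds. For transcription and the cell cycle there were Drap1 (1413), a corepressor, and Tfdp1 (1273), the partner of E2F factors. For RNA there were Snrpd1 (1231), a core spliceosome protein, and Sf3b2 (1112), a subunit of the U2 particle. For protein synthesis there were Eif4g1 (1288), the scaffold of the cap-binding complex, and the nucleolar Rsl1d1 (1093). Genes of blood cell signalling and surface were Rasgrp2 (1339), an activator of Rap1, Tfrc (1280), the transferrin receptor, the kinase gene Map4k2 (1224) and Ptprcap (1185), whose product associates with CD45. Fabp5 (1342), a fatty acid carrier, Ndufv1 (1180), a subunit of respiratory complex I, Coro1b (1070), an actin regulator, and 1810022K09Rik (1106) were also among them. The last, at 1111, is named Rpl24 in the deposited table, but GENCODE M21 gives its identifier, ENSMUSG00000022601, to the neighbouring zinc finger gene Zbtb11, so which gene the value belongs to is uncertain. Ptprcap needs care because 93.9% of its stretches of 50 bases are shared with Rps6kb2 or Coro1b, which overlap it.

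Neighbours in this order mostly had overlapping intervals. Of the 25 neighbouring pairs among the first 26 genes, 17 did, including every pair from Drap1 downward. Overlap alone does not show that values cannot be told apart, and no test between neighbours was made. The order was nevertheless close to that in the other pools. Across the 1050 nuclear genes the Spearman correlation of the WT value was 0.99 with the library hemizygous for DNMT3B7 and 0.991 with the homozygous one, given as a description across genes of libraries that share a pipeline and annotation. Of the first 25 genes, 23 were also in the first 25 of the hemizygous library and 21 in that of the homozygous one. In all 3 libraries, 711 genes were measurable and 177 were listed at 0.

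The mitochondrial mRNAs stood far above the nuclear genes. The mitochondrial genome encodes 13 proteins of the respiratory chain and ATP synthase, and its strands are transcribed as long precursors that are then cut at tRNAs. All of these mRNAs but mt-Nd5 exceeded Cfl1, and their median was 32524, which was 51.4 times the median of the 6 nuclear respiratory chain genes listed below. They made up 81.5% of the summed value of the 1063 genes. Of the fragments estimated for those genes they held 67.7% (Wilson 95% interval 67.6 to 67.7, for counting error only). These were 1281000 fragments, against 612000 on the nuclear genes described. The library's estimated total was 2980000, so neither percentage is the mitochondrial share of the library. The 67.7% depends on the transcript length assumed: with each gene's longest transcript in place of the median length it was 43.1%.

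Among subunits of ATP synthase, mt-Atp8 stood at 173774 and mt-Atp6 at 99472. The 3 core subunits of cytochrome oxidase came next, with mt-Co3 at 74501, mt-Co2 at 61229 and mt-Co1 at 54410. The cytochrome b gene mt-Cytb, of complex III, was at 32707. The 7 complex I subunits were lower: mt-Nd3 stood at 32524, mt-Nd1 at 30982, mt-Nd4l at 30057, mt-Nd4 at 21295, mt-Nd2 at 14594, mt-Nd6 at 14190 and mt-Nd5 at 8730. Thus the 5 mRNAs of complexes IV and V all exceeded the 7 of complex I, while the intervals of mt-Cytb [32525 to 32889] and mt-Nd3 [32068 to 32984] overlapped. mt-Atp6 was 11.4 times mt-Nd5. mt-Nd6, the only one of the 13 encoded on the other strand, was 1.63 times mt-Nd5, with which its annotation overlaps. No source used here gives the use of strand, so the mt-Nd6 value may include reads from the opposite strand.

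The order of the 13 was much the same in the other libraries, while the levels differed. In each of them 11 of the 13 kept the place they had in WT. mt-Co1 was at 47593 in the library hemizygous for DNMT3B7 and 32102 in the homozygous one, and mt-Nd5 was at 8355 and 5410. As a share of the summed value of the 1063 genes, the mitochondrial mRNAs held 78.7% and 72.7% in those libraries. All 13 mRNAs were highest in WT and lowest in the homozygous library; with 1 library each, genotype and library cannot be told apart, and, as for every level in a bulk library, fewer cells of a type cannot be told apart from less RNA per cell.

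The reading of mt-Atp8 has a particular limit, shown by its sequence. Its coding sequence is 204 bases long, close to the length of a sequenced fragment, and its last 43 bases (21.1%) are also the first 43 of mt-Atp6. The stretch they share in the reference, with the start codon of mt-Atp6 and the stop codon of mt-Atp8 in capitals, reads as follows.
mt-Atp8 and mt-Atp6: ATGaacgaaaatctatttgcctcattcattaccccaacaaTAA
Fragments from such a stretch belong to both genes on 1 molecule, and the relation used here for fragment number had been checked only for transcripts of 250 bases or more. It held less well for short ones. Of low WT values, 45.4% were whole multiples of 1 fragment at 250 to 350 bases, against 78% at 500 to 1000. mt-Nd4l (297 bases) and mt-Nd3 (348) lie in the shorter band, so their intervals are less secure. Without mt-Atp8 and mt-Nd4l, the other very short gene, the mitochondrial share of the summed value of the genes described was 75.1%. Copies of mitochondrial sequence in the nuclear genome are a further limit: of the 50-base stretches of each gene, 100% for mt-Co2, 99.9% for mt-Co3, 99.5% for mt-Atp6, 98.8% for mt-Nd4l and 98% for mt-Nd3 also occur in another annotated gene, against 0% for mt-Atp8, mt-Nd1, mt-Nd6 and mt-Cytb. The part of either feature in the order of the 13 was not tested.

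**Figure D2:**
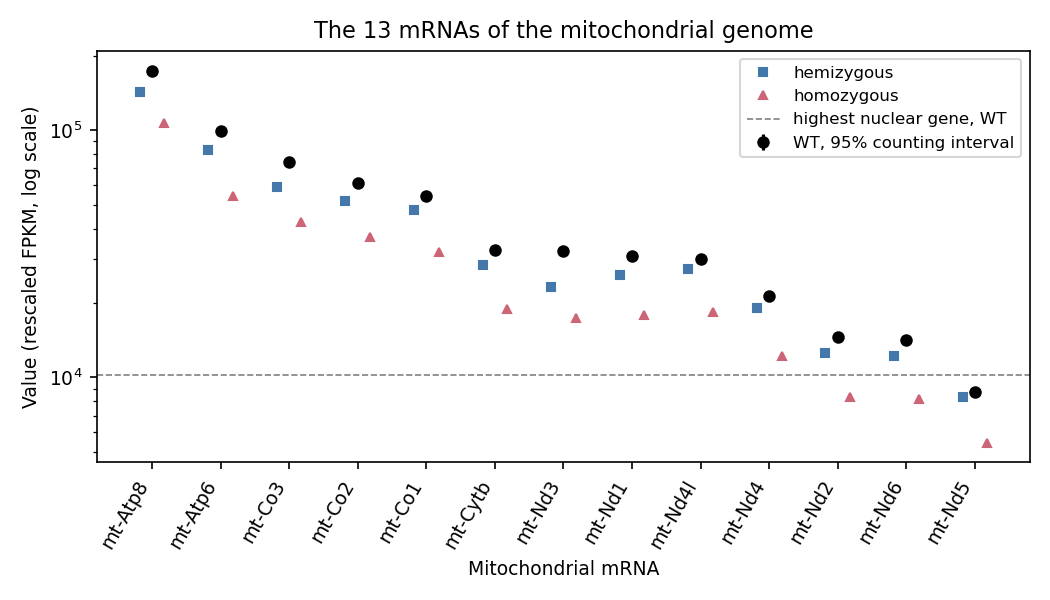
Value (rescaled FPKM, log axis) of each mitochondrial mRNA in the 3 libraries; black circles, WT, whose 95% counting intervals are narrower than the symbols; blue squares, hemizygous; red triangles, homozygous; dashed line, the highest nuclear gene in WT. mt-Atp8 leads at 173774 and mt-Nd5 is lowest at 8730, the only WT point under the line.

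Gene lists were described next by the count of measurable members, the median and a few members: the 3 highest, the lowest and any defining gene, with a few further ones chosen after their values were seen. The nuclear median named for these lists is the 74.0 of measurable nuclear genes. Of all 1050 nuclear genes, 69.1% were measurable and 34.6% stood at or above that median, and each list's counts are to be read beside these shares. Nuclear genes for the respiratory chain and for mitochondrial protein synthesis were all measurable. Of the 6 respiratory chain genes, whose products meet those of the mitochondrial genome in the inner membrane, 5 were at or above the nuclear median. Ndufv1 was at 1180, Atp5j, a subunit of ATP synthase, at 730, and Ndufs8, another complex I subunit, at 689, and the lowest was Timmdc1, an assembly factor, at 65.7. All 12 genes of mitochondrial import and ribosomes were measurable, with a median of 262, from Trap1, a mitochondrial chaperone, at 712 and Mrpl21 at 612 to Mrpl39 at 20.0 [16.2 to 24.4].

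Genes that cells of every kind use for growth formed the upper part of the ranking. The 11 genes of the cytosolic ribosome and translation were all measurable with a median of 327, and 10 of them stood at or above the nuclear median. The exception was Rpl39l, a paralogue of a ribosomal protein gene best known from testis, at 16.4 [11.2 to 23.2]. All 12 splicing and RNA-binding genes were measurable with a median of 243, led by Sf1, Sf3b2 and Tra2b (961), a splicing regulator, and lowest at Dgcr14 with 45.3. The 14 genes of protein folding and turnover had a median of 238. Cct8, a subunit of the actin and tubulin chaperonin, was at 1057, Usp7, a ubiquitin protease, at 670 and Psmd2, a proteasome subunit, at 617, and Pdia5, a disulphide isomerase, was lowest at 8.01.

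Genes for DNA replication and entry into S phase were high. All 13 were measurable, 11 stood at or above the nuclear median and the list's median was 222. Besides Ppp1ca, Rnaseh2c and Tfdp1, already given, Mcm4, a subunit of the replicative helicase, was at 408 [380 to 439], Pola2, a subunit of DNA polymerase alpha, at 450 and Rfc4, of the clamp loader, at 222. Cdk6, the kinase that moves blood progenitors out of quiescence, was at 124 [115 to 135]. Cdc45, another part of the replicative helicase, was far below Mcm4 at 19.6 [16.1 to 23.6], with 19.2 in the library hemizygous for DNMT3B7 and 25.2 in the homozygous one. Mcm4 was at 402 and 390 in those libraries, and the reliability of the low Cdc45 value was not tested.

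Repair genes were lower as a group. All 13 were measurable, with a median of 87.4, and 8 stood at or above the nuclear median. Banf1, a DNA-bridging protein of the nuclear envelope, led at 2967, ahead of Rad9a, a checkpoint clamp subunit, at 378 [350 to 406] and Cdca5, which protects sister chromatid cohesion, at 364. Prkdc, the catalytic subunit of DNA-dependent protein kinase, was lowest at 10.8 [9.70 to 12.1].

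Chromatin regulators were among the more abundant genes. All 14 were measurable, 13 stood at or above the nuclear median, and the median was 223. Drap1 led, followed by Dpf2, a subunit of BAF chromatin remodelling complexes, at 746 and Naa50, an acetyltransferase of protein N-termini, at 715. Dnmt3a, the DNA methyltransferase whose loss makes blood stem cells renew at the cost of differentiation, stood at 603 [573 to 635], with 698 in the library hemizygous for DNMT3B7 and 683 in the homozygous one. It was 6.42 times Asxl2 (94.0), a partner of the histone deubiquitinase BAP1. The lowest was the acetyltransferase gene Crebbp at 43.2.

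Transcription factors known from blood were lower than these machinery genes. Of 17, 16 were measurable and the list's median was 42.2. The nuclear median was reached by 6 of the 17, near the 34.6% of all nuclear genes that reached it. Rela, a subunit of NF-kappaB, was at 214, Gabpa, an ETS factor, at 178 and Runx1, required for the first blood stem cells to arise, at 152 [144 to 160]. Runx1 was at 153 in the library hemizygous for DNMT3B7 and 132 in the homozygous one. Hes1, a target of Notch signalling, was at 33.0 [24.0 to 44.3]. Cebpd, a factor of the myeloid lineage, was at 42.2 and Bcl6, which acts in germinal centre B cells, at 6.61. The lowest of those measurable was Zbtb20 at 1.89, and Fosl1 was at 0.164.

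Receptors and signalling genes covered a broad range. All 14 genes on the list named for surface receptors and adhesion were measurable, with a median of 51.1. Its highest members were Rasgrp2 at 1339, Lamp1, a lysosome membrane protein, at 994 and Tcirg1, a proton pump subunit, at 922. These are not themselves surface receptors or adhesion molecules, so the list's median is no measure of that class. Cd47, the signal that protects blood cells from being engulfed, was at 314 [298 to 331]. Alcam, an adhesion molecule, was at 3.79 and Jam2, a junction molecule, was lowest at 1.23. Of 15 cytokine and Notch genes, 14 were measurable and the median was 120. Map4k2 stood at 1224 and Rps6kb2, an S6 kinase, at 358. The interferon receptor chains Ifnar1 (120), Ifnar2 (147) and Ifngr2 (110) and the shared interleukin receptor chain Il10rb (114) lay within a narrow band. Mib1, the ubiquitin ligase that activates Notch ligands, was at 206. Thpo, the ligand of the thrombopoietin receptor and a product of liver cells rather than of stem cells, was at 0.357 [0.0432 to 1.29], and at 0 in the other 2 libraries.

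Genes of actin and motility spanned a broad range. All 14 were measurable, from Cfl1 at 10185 to the muscle gene Actn3 at 1.29, and 8 stood at or above the nuclear median. After Cfl1 and Coro1b came Coro7, a coronin of the Golgi, at 697 [664 to 731] and Hcls1, the cortactin of blood cells, at 249. In the glutathione and redox list 8 of 9 were measurable. Gstp1 (1033) and Gstp2 (725), glutathione transferases of 1 gene cluster, led it, but 54.3% of the 50-base stretches of Gstp2 are shared. Sod1, the cytosolic superoxide dismutase, was at 31.9 [28.2 to 35.9], which was 0.213 times Ccs (149), the chaperone that gives it copper. Sod1 was at 26.4 and 28.1 in the other libraries. Sod1, Cdc45 and Mrpl39 are genes that most dividing cells use, and whether their low values reflect the cells or the deposited values in these stretches was not tested.

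Red cell genes were split. All 8 were measurable and 4 stood at or above the nuclear median. Car2 at 2200, Tfrc at 1280, the haem oxygenase gene Hmox2 at 493 (41.9% of its 50-base stretches shared with other genes) and Cpox, an enzyme of haem synthesis, at 442 were high. The carbonic anhydrase genes beside Car2 on chromosome 3 were much lower: Car1, which marks later red cells, stood at 64.7 [57.0 to 73.1], Car13 at 23.7 and Car3 at 7.58. Car2 was thus 34 times Car1. Car2 was at 2091 in the library hemizygous for DNMT3B7 and at 1786 in the homozygous one, and Tfrc at 1414 and 1013. The globin genes are not among the genes described here.

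Lymphoid genes were all measurable as well. Of 12, 5 stood at or above the nuclear median and the list's median was 41.3. Apart from Ptprcap, the highest were the 3 surrogate light chain genes, whose products stand in for the light chain in early B cell precursors. Igll1 (lambda5) stood at 236 [223 to 249], Vpreb1 at 174 [154 to 196] and Vpreb2 at 107 [94.0 to 122]. In the library hemizygous for DNMT3B7 the levels were 190, 122 and 88.3, and in the homozygous one 95.5, 57.0 and 39.7. All 3 genes were highest in WT and lowest in the homozygous library. Vpreb1 and Vpreb2 share sequence with each other, and Vpreb1 also with Top3b (310), which overlaps it on the opposite strand. Of their 50-base stretches, 23.6% for Vpreb1 and 32.8% for Vpreb2 are shared, so the split of reads among these genes is uncertain. No stretch of Igll1 occurred in another gene. The lowest was Tigit, an inhibitory receptor of T and NK cells, at 2.15.

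Myeloid genes spanned a narrower range than the lymphoid list, from 3.41 to 154 against 2.15 to 1185, and platelet genes were lower. All 8 on the myeloid list were measurable, with a median of 56.1. Its highest members, Birc3, an inhibitor of cell death, at 154, Litaf at 120 and Birc2 at 103, are not confined to myeloid cells. The lowest were Mmp12 at 5.80 and the neutrophil collagenase gene Mmp8 at 3.41 [2.31 to 4.85]. The list's median is therefore no measure of myeloid expression. The stefin A genes, protease inhibitors best known from neutrophils, form a cluster on chromosome 16. All 5 stefin genes in the family count were measurable; Stfa1 led at 332 [303 to 363], Stfa3 stood at 16.6, Stfa2l1 at 10.6 and Stfa2 at 4.51 [1.45 to 10.6], and the related BC100530 beside them was at 299, while Gm5416 and 2010005H15Rik, in the same cluster, were listed at 0. These stefin genes were chosen after their values were seen. Shared sequence was not counted for them, so the split of reads among these related genes is uncertain. Of the 7 platelet genes listed, 4 were among the genes described and all were measurable, with a median of 11: Pros1, protein S, at 17.1, the platelet glycoprotein gene Gp5 at 16.5 [13.8 to 19.6], Gp1bb at 5.50 and Mylk at 3.79. Of the 50-base stretches of Gp1bb, 90.6% lie in overlapping genes such as Sept5.

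Most hepatocyte genes were at or near 0, while vessel wall and stromal genes were mostly measurable at low values. Of 11 hepatocyte genes, 3 were measurable, 5 were listed at 0 and the list summed to 37.6, which is less than the value of Runx1 alone. The defining secreted protein Ahsg (fetuin-A) was at 3.70 [2.14 to 5.96], and Fetub, Hrg, Kng2 and Cpn2 were listed at 0; the fifth gene at 0, Adipoq, is best known from fat cells. The coagulation factor gene F10 was at 20.8 and Proz at 11.5. Of 9 vessel wall and stromal genes 8 were measurable, with a median of 1.63 and a sum of 67.6. The basement membrane collagen genes Col4a2 (27.1) and Col4a1 (25.5) carried most of it, and the endothelial gene Cldn5 was at 1.63 [0.705 to 3.22] and the smooth muscle gene Myh11 at 0.461. Col4a2 stood at 36.4 in the library hemizygous for DNMT3B7 and at 54.1 in the homozygous one. The part of such cells in the other values was not tested.

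Genes of tissues with no place in fetal liver stood lower still. Of 18 brain genes, 2 were measurable, the higher being Gap43 at 2.21, and 10 were listed at 0. None of 7 testis genes was measurable, where Prm1 was highest at 0.933 [0.0229 to 5.23]. Of 12 epithelial and keratin genes, 2 were measurable, with Ovol1 highest at 2.29. Of all nuclear genes 69.1% were measurable, and each of these 3 lists lay far below that share.

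**Figure D3:**
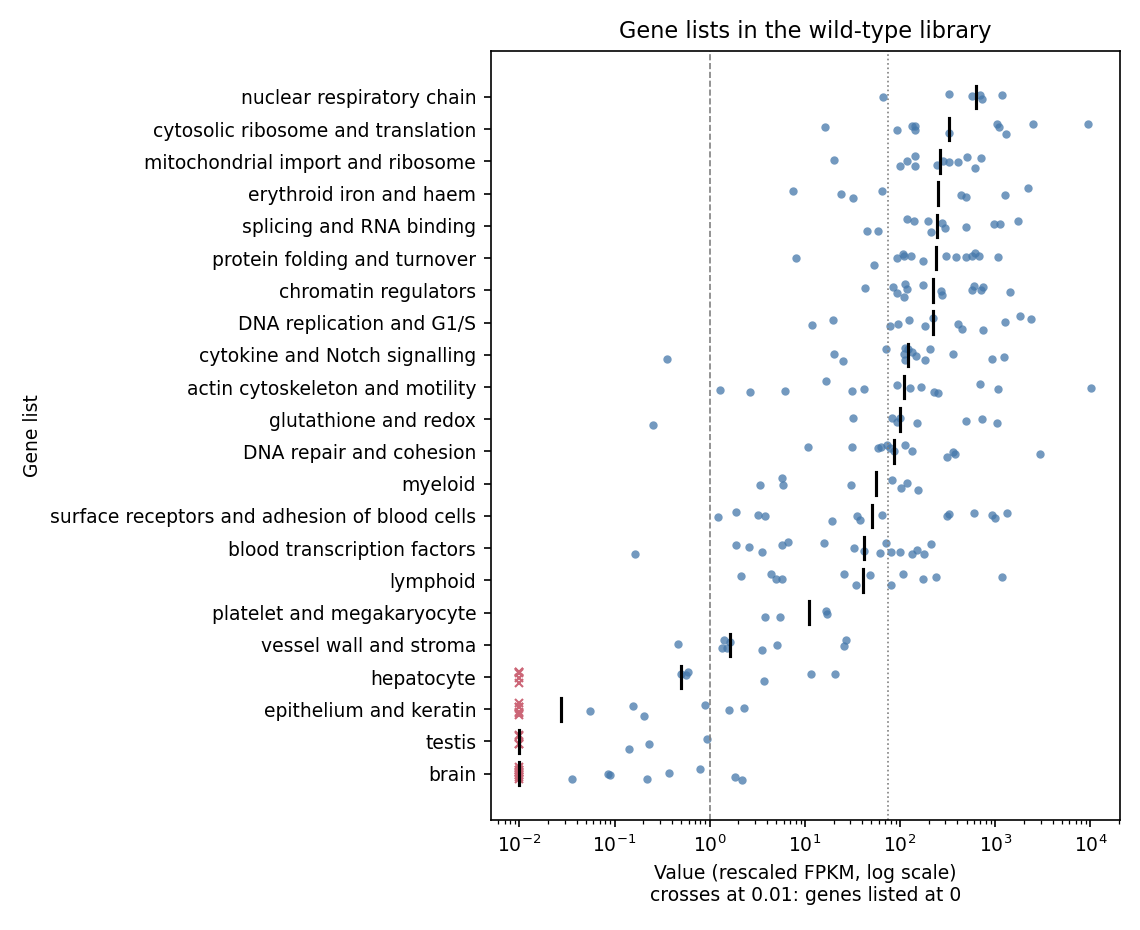
Value (rescaled FPKM, log axis) of each member of the nuclear gene lists in the WT library; blue circles, genes above 0; red crosses, genes listed at 0, drawn at 0.01; black bar, the list's median; dashed line, a value of 1; dotted line, 74.0. Lists run from nuclear respiratory chain genes (median 632) at the top to testis and brain genes (median 0) at the bottom.

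Along chromosome 16 the measurable genes were interrupted by long silent stretches. There 389 of 611 genes were measurable (63.7%), with a median of 70.9. On chromosome 19, which gave 14 of the first 25 genes and 39.9% of the summed nuclear value, 122 of 141 were measurable (86.5%) and their median was 159. The longest run of genes at 0 on chromosome 16 held 40 genes, from Grik1, a glutamate receptor gene, to Krtap11-1, and was made up largely of keratin-associated protein genes, which build hair. A run of 26 genes from Olfr172 to Gabrr3 was made up of odorant receptor genes and a GABA receptor gene, and a run of 8 from Olfr164 to Olfr171 of odorant receptors. All 36 odorant receptor genes and all 23 keratin-associated genes were at 0 in WT. Counting along the chromosome in blocks of 50 genes, between 26 and 41 genes of each of the first 9 blocks were measurable, against 14, 21 and 24 in the next 3. Those 3 blocks hold the runs of 26 and 40 silent genes, and Runx1 lies beyond them, among the last 11 genes. Reads that match several members of such families may be placed by the authors' pipeline in ways that no source used here gives.

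**Figure D4:**
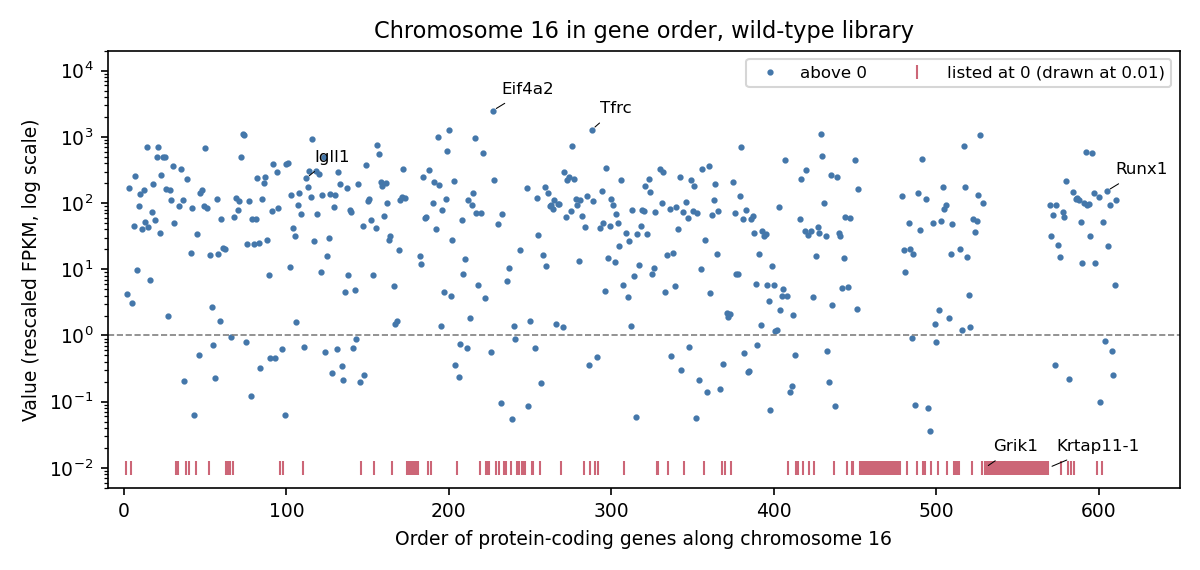
Value (rescaled FPKM, log axis) of 611 protein-coding genes in their order along chromosome 16 in the WT library; blue points, genes above 0; red ticks, genes listed at 0, drawn at 0.01; dashed line, a value of 1. The 2 broad red bars to the right are the odorant receptor run of 26 genes and the run of 40 genes ending at Krtap11-1.

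The promoters of silent and abundant genes on chromosome 16 differed in base composition. Promoters here are the 250 bases before and 50 bases after each gene's start in the RefSeq table for GRCm38.p6, and 500 of the 611 genes had an entry (81.8%); chromosome 16 was used because over all nuclear genes only 75.2% had one. CpG pairs, the sites of DNA methylation in mammals, are depleted from most of the genome and kept in CpG islands, where the promoters of many widely used genes lie. The CpG ratio is the number of CpG pairs over that expected from the C and G content. Its median was 0.169 for 127 genes listed at 0, 0.649 for 162 genes from 1 to the median, and 0.816 for 167 genes at the median of 74.0 or above, against 0.384 for all 32851 entries of the table. A ratio over 0.6 was found in 5.51%, 61.7% and 81.4% of these classes and in 35.8% of all entries. Across the 500 genes the Spearman correlation of ratio and value was 0.63, and among the 329 measurable ones 0.29. Both only describe genes that share a chromosome. Of the 155 genes at 0 on chromosome 16, with or without a promoter entry, 36 were odorant receptor genes and 23 were named as keratin-associated genes. The contrast without these families was not tested. Genes at 0 also had shorter transcripts. The median length of the longest was 1518 bases, against 3742 for genes from 1 to the median and 3118 above. The part of transcript length in the contrast was not tested.

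Of 3 short motifs, 2 differed in frequency between the silent and the measurable classes, and so did C and G content. The median C and G content was 43% for genes at 0, 60.3% from 1 to the median and 61.7% above, against 52.7% for all entries. On either strand, TATAAA, the usual TATA box, was in 41.7% of promoters of genes at 0, in 8.02% of those from 1 to the median and in 8.38% of those above, against 13.6% of all entries. The ETS factor motif CCGGAAG was in 2.36%, 19.1% and 25.7%, against 8.86% of all entries. The CCAAT motif showed no such split, at 37%, 42.6% and 41.3%, and 37.4% of all entries. A match of letters is not a binding site. TATAAA holds no C or G and CCGGAAG holds mostly C and G, and the part of base composition in these frequencies was not tested. The odorant and keratin families make up a large part of the silent class, and how alike their promoters are was not tested.

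The surrogate light chain genes went against this split. The 3 lowest CpG ratios in the upper class were those of Vpreb2 (0.0388), Igll1 (0.0833) and Vpreb1 (0.0917), followed by Stfa1 (0.116), Ccdc58 (0.118), Gm5483 (0.169) and BC100530 (0.172). Next in order came Bex6 (0.198), Tnk2 (0.214), Ppm1f (0.288), Klhl6 (ratio 0.289, value 248) and Lrrc33 (0.309, 734). On the other side, Hunk (ratio 0.967, value 0.360), the neural adhesion gene Ncam2 (0.958, 0) and Olig2 (0.815, 0.221), a factor of oligodendrocytes and motor neurons, had high ratios and were not measurable. These genes were chosen after their values were seen. By list, the median ratio on chromosome 16 was 0.278 for 9 lymphoid genes, 0.274 for 4 platelet genes and 0.183 for 6 hepatocyte genes, compared with 1.01 for 4 replication genes, 0.852 for 7 translation genes and 0.628 for 11 brain genes. The 4 promoters below are examples of the contrast, printed from 5′ to 3′ in lower case with each CG pair in capitals. They are those of the highest nuclear gene, Cfl1, of Igll1 and Vpreb1 as abundant genes with few CpG pairs, and of Krtap11-1 as a silent one with a TATAAA match. Cfl1 lies at chr19:5490205-5490504 on the plus strand with 22 CG pairs, Igll1 at chr16:16863936-16864235 on the minus strand with 2, Vpreb1 at chr16:16869206-16869505 on the minus strand with 2, and Krtap11-1 at chr16:89571134-89571433 on the minus strand with 4 (all GRCm38.p6, whereas the deposited tables were made on mm9).
Cfl1: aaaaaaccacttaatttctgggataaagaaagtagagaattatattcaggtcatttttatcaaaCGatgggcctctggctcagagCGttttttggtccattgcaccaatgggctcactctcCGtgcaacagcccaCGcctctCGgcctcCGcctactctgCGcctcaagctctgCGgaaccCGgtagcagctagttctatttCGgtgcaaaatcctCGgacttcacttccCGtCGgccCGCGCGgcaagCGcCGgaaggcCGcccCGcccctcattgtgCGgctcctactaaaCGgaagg
Igll1: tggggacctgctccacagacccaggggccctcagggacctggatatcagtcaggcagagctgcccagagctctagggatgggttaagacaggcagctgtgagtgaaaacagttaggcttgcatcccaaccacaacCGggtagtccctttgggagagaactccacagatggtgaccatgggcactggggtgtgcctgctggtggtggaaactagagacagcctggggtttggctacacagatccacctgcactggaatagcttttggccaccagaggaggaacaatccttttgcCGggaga
Vpreb1: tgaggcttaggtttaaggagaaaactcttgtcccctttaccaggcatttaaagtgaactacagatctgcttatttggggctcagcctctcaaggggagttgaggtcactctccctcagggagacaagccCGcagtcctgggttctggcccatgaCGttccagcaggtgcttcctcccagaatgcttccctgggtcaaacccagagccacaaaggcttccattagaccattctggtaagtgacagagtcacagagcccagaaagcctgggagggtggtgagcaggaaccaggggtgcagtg
Krtap11-1: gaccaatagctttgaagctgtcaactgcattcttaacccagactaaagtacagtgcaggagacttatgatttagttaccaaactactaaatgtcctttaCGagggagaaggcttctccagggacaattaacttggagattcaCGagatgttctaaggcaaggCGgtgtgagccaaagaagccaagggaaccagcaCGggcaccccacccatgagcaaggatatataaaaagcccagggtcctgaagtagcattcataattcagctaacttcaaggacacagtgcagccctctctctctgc

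**Figure D5:**
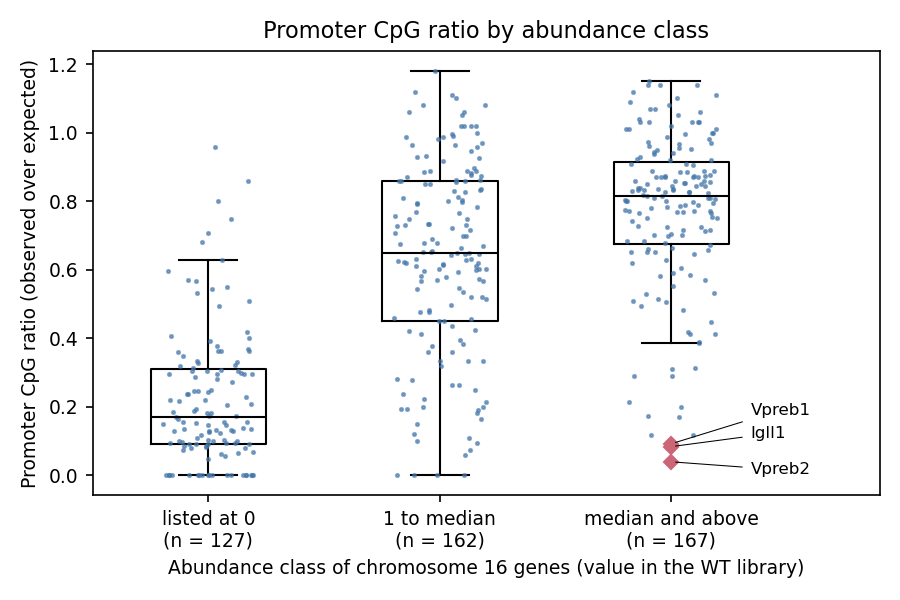
Promoter CpG ratio (observed over expected) of chromosome 16 genes by class of value in the WT library; blue points, single genes; boxes, quartiles and median; whiskers, the range without outlying points. The medians are 0.169, 0.649 and 0.816, and the red diamonds mark Igll1, Vpreb1 and Vpreb2 at the bottom of the upper class.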

How the data were processed

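RNA sequencing was deposited as 1 table of gene FPKM for each of 3 libraries, of which the WT one is described. Per the submitters' processing notes, TopHat2, Bowtie2, Cufflinks and mm9 were used; no source used here gives their versions, the annotation or the use of strand. The deposited FPKM summed to 4880088943 in WT, so the scale is arbitrary, and the authors' values were divided by 4245.

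Gene type, order and transcript lengths came from GENCODE M21 (GRCm38), which held 36463 of 38205 gene identifiers (95.4%). Names are those of the deposited tables. Small RNAs were left out of totals. For genes with 1 annotated transcript of 1000 to 10000 bases, 70.7% of 877 low WT values were whole multiples, within 0.05, of 1 fragment (10% by chance), with fragment lengths taken as normal with a mean of 200 and an SD of 80 bases; the estimate was tested on simulated data. Shared sequence was counted in stretches of 50 bases of annotated transcripts. Scripts used Python 3.11.15, pandas 2.3.3 and scipy 1.17.1.

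No test was made, since each genotype has 1 library. Named genes were the 13 mitochondrial mRNAs, the 25 highest nuclear genes, the 5 nearest the median and up to 6 members of each list; others were chosen after their values were seen. The values of 1 list member are not reported here. The genes and lists were chosen with earlier results of these data known. The genes on chromosome 16 alone were used for promoters, a choice made after matching was counted; the class under 1 was left out, since 65.7% of it had an entry, under the 80% needed. Alternatives changed the measurable value, the stretches, the library, the length and the classes.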

Additional observations from a re-analysis of the deposited data

Results flagged for a closer look

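Genes that are not protein-coding were outside the ranking, and 5 of them are given here. Among 376 such genes in the same stretches, small RNAs left out, 179 had a value of 1 or more. For Rps24-ps2 a count of 3 fragments would correspond to 3.82, so for short genes a value of 1 can lie under that limit. The 3 highest were processed pseudogenes: Rps24-ps2 at 8586 (7177 and 6686 in the libraries hemizygous and homozygous for DNMT3B7), Gm15772 at 8175 (7031 and 7278) and Gm6767 at 7902 (8260 and 8519), all between Fau and Banf1 in the WT order. Shared sequence was not counted for these pseudogenes, and whether reads of other genes were placed on them was not tested. The mitochondrial ribosomal RNAs mt-Rnr1, at 2200, and mt-Rnr2, at 1639, were below all 13 mitochondrial mRNAs.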

How the results depend on the processing

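The ranking rests on 1 library from pooled embryos. The count of 726 measurable genes ranged from 642 at a value of 5 or more to 830 at any value above 0, and was 389 on chromosome 16 alone. The median of 74.0 became 58.0 at a value of 0.1 or more, 93.9 at 5 or more and 91.5 when the genes were scaled to sum to 1000000. Among the 1063 genes, the mitochondrial share of summed value was 81.5%. As a share of estimated fragments it was 67.7%, 67.3% with 200 bases taken off each length and 43.1% with the longest transcripts. The last 2 settings were chosen after seeing the data. The share of summed value was 75.1% without mt-Atp8 and mt-Nd4l, and 78.7% and 72.7% in the libraries hemizygous and homozygous for DNMT3B7. The share of the 25 highest genes, 37.3%, was 39.0% on chromosome 16, 39.7% without the last 10% of each stretch's genes, 30.5% of estimated fragments, and 36.5% and 36.7% in the hemizygous and homozygous libraries. The longest transcripts in place of the median raised the estimated fragments of Cfl1 from 31167 to 88366, of Fau from 11385 to 20453, of Tfrc from 3134 to 24188 and of Runx1 from 1429 to 3459. The difference in median CpG ratio between the highest and lowest classes was 0.647, and 0.609 with classes at 0.1 and 10. No paired analysis was possible because each genotype has 1 library. Low depth limits genes under a value of about 1.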
